A study of Mus musculus with 2 samples.

Results

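Interferon-stimulated genes outside the p200 family were followed in the liver of Bglu3 congenic mice and of C57BL/6 apoE-/- control mice. They were taken from a list of 36 gene symbols, and a gene was measured when at least 1 Affymetrix probe set carried its symbol alone. By this rule 32 of the 36 genes were measured, among 18193 genes on the array, through 44 probe sets. Oas1g and Ifi44 could not be matched this way, and Isg15 and Tgtp1 were represented only by probe sets that also carry another gene's symbol, so these 4 genes have no value of their own.

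The series holds 1 array per group. A congenic strain carries a donor stretch of chromosome on another strain's background, and Bglu3 is a blood glucose locus of mouse chromosome 1. Both groups are labelled as hyperglycemic and as C57BL/6. The labels give a disrupted apoE gene for the control mice and do not state the apoE genotype of the congenic mice, the donor strain, the sex, or whether RNA of several animals was pooled. Mice of both groups were weaned at 3 weeks of age, received a Western diet from 6 weeks of age and kept it for 12 weeks. Whole-liver RNA was extracted and labelled with biotin.

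Intensities on the arrays had medians of 19.3 (congenic) and 19.7 (control), and no scaling was added. Markers of hepatocytes were present on both arrays. Alb stood at 14121 and 12910 and Ttr at 13681 and 13080 (congenic and control), and all 8 measured markers were within 1.5-fold. Because each group has 1 array, variation between animals is unknown, no test could be run, and every difference below describes 2 arrays. The spread that can be given is between probe sets of the same gene. Among the 5189 genes with several expressed probe sets, the log2 differences of probe sets of the same gene varied with an SD of 0.34, called the probe set SD below. It leaves out error shared by all probe sets of an array, so it does not measure the error of a gene's difference. A gene was called expressed if its brightest probe set reached the array's 50th percentile on either array. Differences are log2(intensity + 5) on the congenic array minus the same on the control array, and a gene was counted as higher or lower past 1.5-fold, which is 0.58 on this scale. The added 5 makes differences of dim genes smaller than their intensity ratios.

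Interferons are secreted proteins that warn cells of infection. The type I interferons act through the receptor chains Ifnar1 and Ifnar2 and the kinases Jak1 and Tyk2, and a complex with Stat2 and Irf9 then binds the interferon-stimulated response element in promoters of antiviral genes such as those of the Ifit, Oas and Mx families. Interferon-gamma acts through Ifngr1, Ifngr2, Jak1 and Jak2, and acts on gamma-activated sites in genes such as Irf1 and the GTPases of the Gbp and Irg families, which attack the vacuoles of intracellular pathogens. The programs overlap, since many of these promoters answer to either interferon. In liver, hepatocytes, endothelial cells and Kupffer cells all respond to them.

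Promoters of the members were searched for these elements. RefSeq promoter sequences of build GRCm38.p6, from 250 bases before to 50 bases after the annotated start, were at hand for 27 of the 36 genes in 34 windows, since some genes have several starts. The core of the interferon-stimulated response element was searched as GAAANNGAAA on both strands, and that of the gamma-activated site as TTCNNNGAA, which reads the same on either strand. Overlapping matches of either motif were counted separately. The first core was found in 16 of the 34 member windows (47.1%) and in 3.44% of all 32851 windows. The second was found in 9 of the 34 (26.5%) and in 8.3% of all windows. By gene, the first core was present in 6 of 7 Gbp and Irg genes with a promoter, in 5 of 8 Ifit and Oas genes and in 5 of 12 other members.

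The windows of 60 bases below are shown because they carry both cores side by side in the Irg GTPase genes, with the matches in capitals. Igtp lies on the plus strand at chr11:58199491-58199550, Irgm2 on the plus strand at chr11:58214882-58214941 and Tgtp1 on the minus strand at chr11:48992295-48992354. All are written 5′ to 3′ along the gene.
Igtp: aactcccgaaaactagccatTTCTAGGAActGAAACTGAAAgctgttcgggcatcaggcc
Irgm2: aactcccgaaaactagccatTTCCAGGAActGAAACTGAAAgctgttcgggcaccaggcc
Tgtp1: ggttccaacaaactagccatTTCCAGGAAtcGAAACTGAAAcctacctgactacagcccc
In each of the 3, the response element core begins 11 bases after the start of the gamma-activated site core, and the latter begins at positions -45, -75 and -88 relative to the annotated start in Igtp, Irgm2 and Tgtp1. The windows of Igtp and Irgm2 are identical at 58 of 60 bases, and that of Tgtp1 matches them at 38 and 40. This spacing, chosen after the sequences were seen, occurred in 5 of the 32851 windows (0.0152%). The other two belong to Tgtp2 and Gm12185, also on chromosome 11. Close relatives share sequence, so the 5 windows are not independent of each other.

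Other members carried response element cores without an adjacent gamma-activated site. Shown for contrast are Ifit1 (chr19:34640769-34640828, plus strand), which encodes a protein that binds viral RNA, with Gbp2 (chr3:142620579-142620638, plus strand), Gbp3 (chr3:142559977-142560036, plus strand) and Irgm1 (chr11:48871421-48871480, minus strand). In Ifit1, Gbp2 and Gbp3 the core lies on the opposite strand and is therefore read as its reverse complement.
Ifit1: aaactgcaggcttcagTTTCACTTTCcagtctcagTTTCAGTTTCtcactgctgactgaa
Gbp2: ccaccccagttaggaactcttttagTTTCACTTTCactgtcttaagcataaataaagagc
Gbp3: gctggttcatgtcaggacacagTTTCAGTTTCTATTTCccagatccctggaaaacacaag
Irgm1: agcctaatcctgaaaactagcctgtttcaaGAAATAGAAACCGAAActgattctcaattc
Ifit1 holds 2 separate cores, as does the window of Ifit3, Gbp3 and Irgm1 each 2 that overlap, and Gbp2 has 1. A match describes the letters in this window and is not evidence of a bound factor. No match was found in the windows of Oasl2, Oasl1, Ifi47, Irf7, Irf9 and Xaf1, which says nothing of elements farther away.

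**Figure D1:**
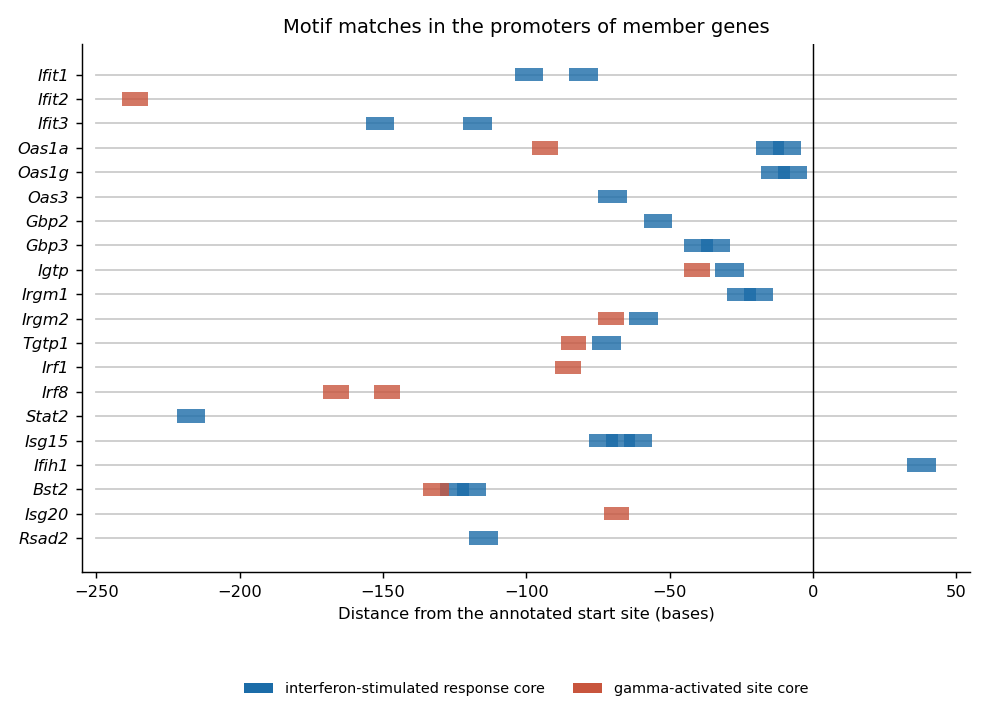
Positions of the 2 motif cores (bars) in promoters of the 20 members that hold at least 1 match, with distance from the annotated start site in bases on the x axis and a line per gene. The gamma-activated site core (red) stands directly before the response element core (blue) in Igtp, Irgm2 and Tgtp1, where it begins at positions -45, -75 and -88.

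The members as a group were modestly higher on the congenic array. Of the 32 measured genes, 31 were expressed, all of them on both arrays, and their median log2 difference was 0.27, against 0.04 over all 12613 expressed genes. Among the 31, 26 were higher and 5 lower at any size, where 56.1% of all expressed genes were higher, and 23 were higher after quantile normalization or removal of a loess trend. Past 1.5-fold, 7 were higher (22.6%), beside 7.59% of all expressed genes, and 0 were lower, beside 5.26%. With a pseudocount of 20 the number past 1.5-fold was 4, beside 4.43% of all expressed genes, and Mx1, Oas1a and Gbp3 were no longer past it. In 15 of the 31 the difference exceeded the probe set SD of 0.34 on the higher side (48.4%, beside 17.9% of all expressed genes), in 1 on the lower side (beside 12.8%), and the other 15 lay within it. Oas3, a synthetase of the signal that activates RNase L, was not expressed, with intensities of 1.98 (congenic) and 3.57 (control).

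**Figure D2:**
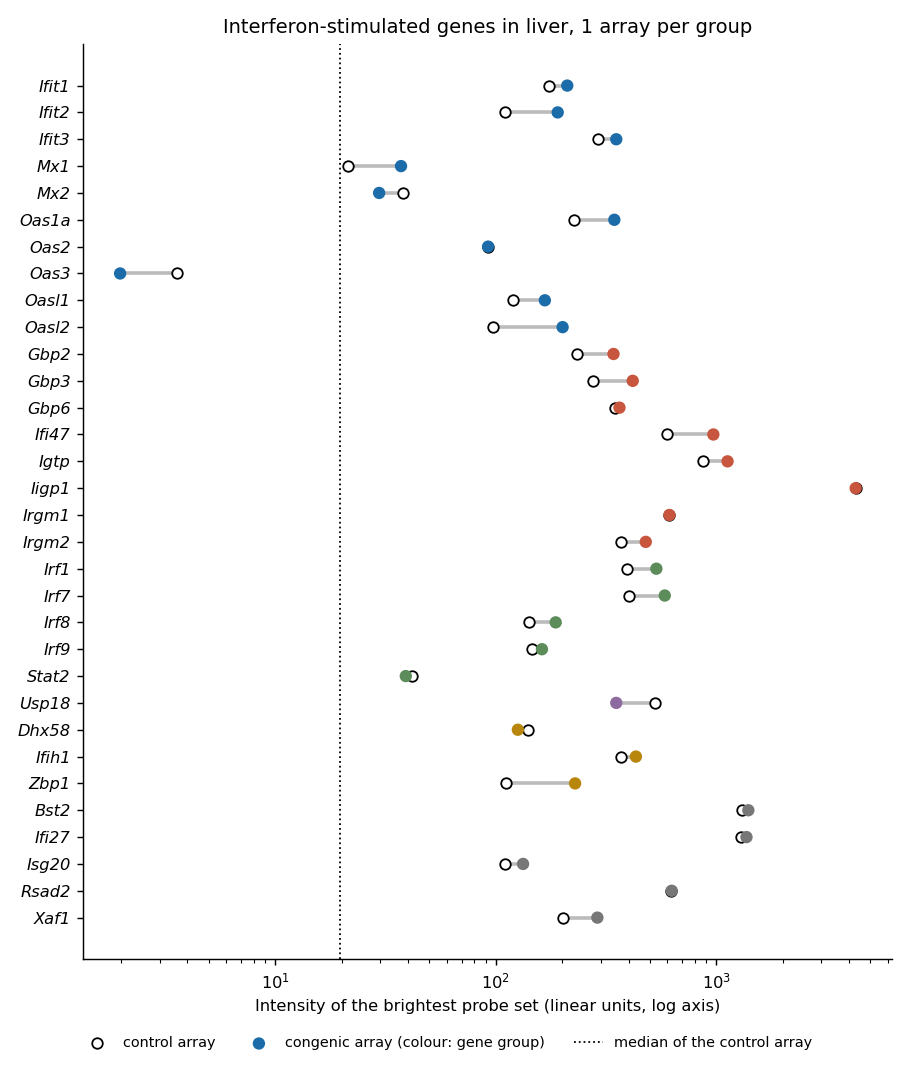
Intensity of the brightest probe set of each of the 32 measured members (log axis) on the control array (open circles) and the congenic array (filled circles, coloured by gene group), with 1 array per group and no error bars. Most filled circles lie to the right of the open ones, while Usp18, Mx2, Stat2, Dhx58 and the dim Oas3 lie to the left and Oas2, Irgm1, Iigp1 and Rsad2 coincide. Levels of different probe sets are not comparable with each other.

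The Ifit, Oas and Mx genes, the antiviral effectors typical of type I interferon, were uneven. Oasl2, an oligoadenylate synthetase-like protein with ubiquitin-like domains, had intensities of 201 (congenic) and 97.3 (control). It was higher on the congenic array with a log2 difference of 1.01, and its single probe set, with the suffix _a_at, can read several transcripts of the gene. Oasl1, its relative that restrains translation of Irf7, stood at 167 and 120 (congenic and control), a log2 difference of 0.46 that stays short of 1.5-fold. Oas1a, which makes the oligoadenylates that activate RNase L, stood at 345 and 227, with a log2 difference of 0.59, just past the 1.5-fold line. For Oas2, another synthetase, the intensities of 92.3 and 92.4 were level. The 4 expressed Oas genes thus spread from no difference to about 2-fold (2.02 for Oasl2).

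The Ifit genes were all higher on the congenic array, in unequal measure. Ifit2, an RNA-binding protein that blocks viral translation, stood at 191 and 110 (congenic and control), a log2 difference of 0.77. Ifit1, which recognises the cap structure of viral RNA, stood at 211 and 174, and Ifit3, its partner, at 352 and 291. These last genes each differed by 0.27, within the probe set SD, so of the 3 only Ifit2 was past 1.5-fold. The Mx genes went opposite ways at low levels. Mx1 had intensities of 37.2 and 21.3 and a log2 difference of 0.68, and Mx2 of 29.6 and 38 and a difference of -0.31. Mx proteins are dynamin-like GTPases that trap viral particles, and the gene table of the C57BL/6J assembly lists both genes as transcribed pseudogenes.

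The Gbp and Irg GTPases, typical of interferon-gamma, spread over a narrower range. Gbp3, a guanylate-binding protein, stood at 418 and 275 (congenic and control), a log2 difference of 0.59 past 1.5-fold. Gbp2, which coats pathogen vacuoles, had 2 probe sets with log2 differences of 0.54 and 0.44, the brighter at 342 and 234. Gbp6 had intensities of 364 and 348 and a log2 difference of 0.07 in each of its 2 probe sets. The 3 Gbp genes were thus higher by up to 1.51-fold on the congenic array. Members of this family are close relatives, and a probe set can also read a relative's transcript.

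Among the Irg genes Ifi47 had the largest difference. Ifi47, an effector GTPase also called Irgd, stood at 970 and 600 (congenic and control), a log2 difference of 0.69. Igtp, also called Irgm3, stood at 1125 and 867, and its chromosomal neighbour Irgm2 at 479 and 370. Both of these regulatory GTPases differed by 0.37, slightly above the probe set SD. They are the measured genes whose promoters hold the paired cores printed above. Irgm1, the third regulatory member, which controls the effector GTPases and autophagy, had intensities of 613 and 609. Iigp1, an effector that disrupts pathogen vacuoles and is also called Irga6, had 2 probe sets at 4287 and 4283 and at 2335 and 2153. Neither gene differed by more than 0.12 on the log2 scale in any probe set, and each turned slightly negative after quantile normalization or removal of a loess trend, so within the Irg family differences ranged from level to 0.69 by brightest probe set.

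**Figure D3:**
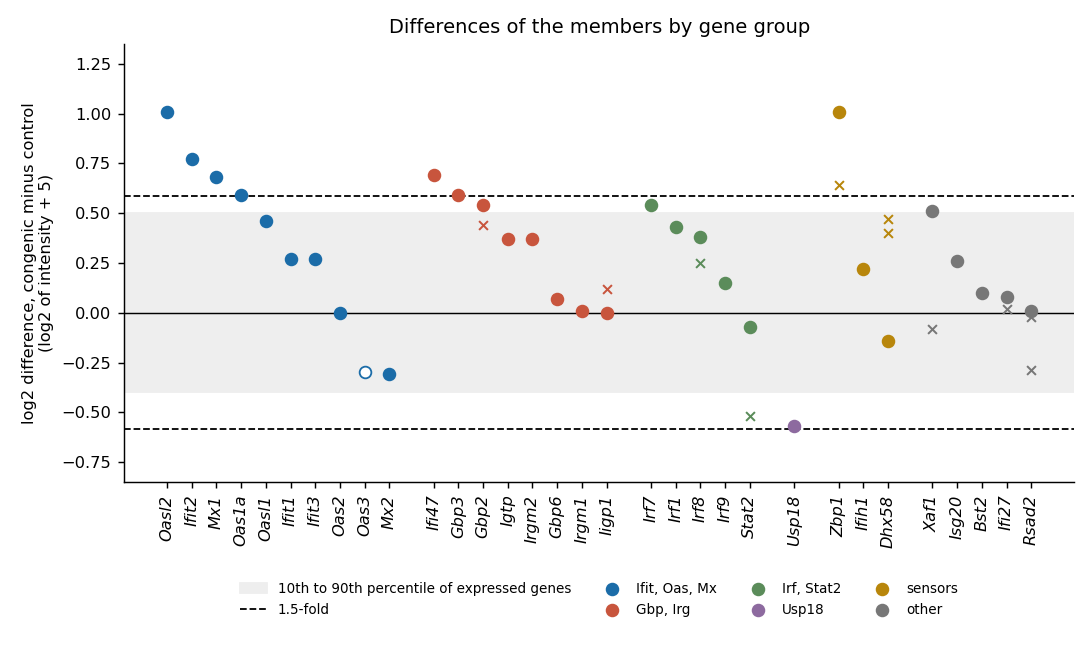
log2 difference (congenic minus control, of intensity + 5) of each measured member, with its brightest probe set as a filled circle (open for the unexpressed Oas3) and its other probe sets as crosses, grouped and coloured by gene group. Dashed lines mark 1.5-fold, and the grey band spans the 10th to 90th percentile of all expressed genes (-0.40 to 0.50). The 7 genes above the upper line are Oasl2, Ifit2, Mx1, Oas1a, Ifi47, Gbp3 and Zbp1.

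Compared directly, the type I-like and interferon-gamma-like genes had overlapping differences, and the order of their medians changed with the processing. The 9 expressed Ifit, Oas and Mx genes had a median log2 difference of 0.46 and ranged from -0.31 to 1.01, with 4 past 1.5-fold. The 8 Gbp and Irg genes had a median of 0.37 and ranged from 0.00 to 0.69, with 2 past 1.5-fold. Of all expressed genes, 7.59% were higher past 1.5-fold. The counts of the classes were 3 and 1 after quantile normalization or removal of a loess trend, and 2 and 1 with a pseudocount of 20. The difference of the medians, interferon-gamma-like minus type I-like, was -0.09, with no test possible. It turned to 0.10 when only probe sets with a plain _at suffix were used, where the type I-like median was 0.27 without Oasl2 and Mx1. It was 0.00 without the filter on expression, which adds Oas3.

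The transcription factors that carry the interferon response differed by less than 1.5-fold. Irf7, which amplifies type I interferon production, stood at 584 and 401 (congenic and control), a log2 difference of 0.54, and Irf1, an early target of interferon-gamma, at 535 and 395, a difference of 0.43. Irf8, a factor of macrophages, dendritic cells and B cells, had probe sets at 187 and 142 and at 160 and 134, with differences of 0.38 and 0.25. These 3 factors were above the probe set SD by their brightest probe sets. The components of the type I signalling complex were not. Irf9 stood at 162 and 146, a difference of 0.15, and Stat2 at 39.1 and 41.5, a difference of -0.07, with a second, dimmer probe set at -0.52.

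Sensors of foreign nucleic acid, which interferon also induces, were mixed. Zbp1, which senses Z-form nucleic acids and can trigger cell death, stood at 229 and 111 (congenic and control) in its brighter probe set, a log2 difference of 1.01. Its other probe set, at 44.9 and 26.9, differed by 0.64, so both were past 1.5-fold. Ifih1, the RNA sensor also called MDA5, stood at 432 and 371, a difference of 0.22. Dhx58, its regulator also called LGP2, stood at 126 and 140, a difference of -0.14, and its 2 dim probe sets differed by 0.40 and 0.47, so its direction depends on the probe set.

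Usp18, which removes Isg15 from proteins and blocks signalling at the type I receptor, went against the group. Its intensities were 352 (congenic) and 526 (control), a log2 difference of -0.57, which lies just short of 1.5-fold on the lower side and passes it after quantile normalization or removal of a loess trend (5 members were then higher past 1.5-fold and Usp18 lower). It was the only expressed member that was lower by more than the probe set SD by brightest probe set.

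The remaining effectors differed by less than 1.5-fold. Xaf1, which promotes apoptosis, had a log2 difference of 0.51 at 289 and 201 (congenic and control), above the probe set SD, while its dimmer probe set was at -0.08. Isg20, an exonuclease of RNA, differed by 0.26 at 133 and 110. Rsad2, the antiviral enzyme viperin, had intensities of 628 and 624 in its brightest of 3 probe sets, and Bst2, the tetherin that holds budding virus at the cell surface, of 1398 and 1306. Ifi27 stood at 1371 and 1298. None of these 5 genes was past 1.5-fold, and Rsad2, Bst2 and Ifi27 differed by at most 0.10 by brightest probe set.

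Members with a match in the promoter window included level genes, and members without one included genes past 1.5-fold. The 12 expressed members with a response element core in their window had a median difference of 0.27, ranged from -0.07 to 0.59 and held 2 genes past 1.5-fold. The 10 with a window but no core had a median of 0.48, ranged from 0.15 to 1.01 and held 3 past 1.5-fold. The 8 with a gamma-activated site core had a median of 0.38 and held 2 past 1.5-fold. The 14 without that core had a median of 0.36 and held 3. Past 1.5-fold, 7.59% of all expressed genes were higher. Bst2 is shown as a member with matches that was level on these arrays, with its gamma-activated site and response element cores overlapping (chr8:71537568-71537627, minus strand).
Bst2: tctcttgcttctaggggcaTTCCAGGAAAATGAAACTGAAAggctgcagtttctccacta
For either core, the ranges of members with and without it in the 300 bases searched overlapped.

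None of the 36 members lies on chromosome 1 in the gene table of assembly GRCm38.p6. The largest numbers were on chromosome 11 (8 genes, among them 5 of the Irg family) and chromosome 5 (7 genes, among them 6 of the Oas family). Of the 7 members past 1.5-fold, Oasl2 and Oas1a are on chromosome 5, and Ifit2, Mx1, Gbp3, Ifi47 and Zbp1 are on chromosomes 19, 16, 3, 11 and 2.

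Upstream genes of the pathway were mostly within 1.5-fold, as were most expressed genes. Of the latter, 7.59% were higher and 5.26% lower past it. The interferon genes were near or below the array medians. Ifng, encoding interferon-gamma, stood at 22.7 and 13 (congenic and control), a log2 difference of 0.62, and Ifnb1, encoding interferon-beta, at 11.7 and 6.73, below the expression filter. Of 10 measured interferon genes only Ifng and Ifna1 were expressed, and Ifna1 went the other way with 16 and 28.8. Ifng passed the filter on the congenic array alone and Ifna1 on the control array alone. Each was thus kept through the array where it was higher, and no interferon gene was expressed on both arrays. At such intensities differences are poorly determined, and interferon-alpha genes share sequence. The 5 expressed receptor genes had a median of 0.13 and ranged from -0.11 for Ifngr2 to 0.32 for Il10rb, a chain of the interferon-lambda receptor. The kinases Jak1, Jak2 and Tyk2 lay between 0.04 and 0.24. The 10 genes of sensing and induction had a median of 0.22, from -0.18 for the mitochondrial adaptor Mavs to 0.50 for Ticam1, the adaptor of Tlr3. None of these receptors, kinases and induction genes was past 1.5-fold.

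Among inhibitors of the pathway, 3 were lower by more than the probe set SD and none higher by as much, by brightest probe set. Of all expressed genes, 12.8% were lower by that much and 17.9% higher. Other probe sets reached 0.74 in Ptpn6 and 0.45 in Pias1, and -0.69 in Ptpn2 and -0.71 in Socs3. Of 7 expressed genes 6 were lower at any size (5 after median centring), beside 5529 of all 12613 expressed genes, with a median of -0.16, and Ptpn2 (-0.01), Ptpn6 (-0.09) and Pias4 (-0.16) were among the 6. With plain _at probe sets alone 5 inhibitors were measured, 3 lower and 2 higher, with 1 past 1.5-fold in each direction. Socs1, a suppressor of cytokine signalling that interferon-gamma induces, stood at 33.5 and 57.2 (congenic and control), a log2 difference of -0.69, and was the sole inhibitor past 1.5-fold, which it was not with a pseudocount of 20. Socs3, its relative, differed by -0.55 at 243 and 357, and Irf2, an antagonist of Irf1, by -0.44 at 194 and 264. With Usp18, these are the negative regulators that were lower by more than the probe set SD by brightest probe set. Pias1 was higher, at 0.22.

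Genes outside the member list that were grouped as type I-like or interferon-gamma-like were also mostly higher. Of all expressed genes, 56.1% were higher at any size, 7.59% were higher past 1.5-fold and 5.26% lower past it. Of 36 expressed type I-like genes in a second list, 35 were higher at any size and 10 past 1.5-fold (27.8%), with none lower past it and a median of 0.41. Its largest differences were in Tor3a, an ATPase of the endoplasmic reticulum, at 149 and 44.8 (congenic and control, log2 difference 1.63), and Ifi27l2a, a relative of Ifi27, at 1232 and 521 (1.24). Of 24 expressed interferon-gamma-like genes, 11 were higher past 1.5-fold (45.8%) and 2 lower, with a median of 0.43. This list also holds Irgq and Irgc1, and whether interferon induces each listed gene was not tested. Gbp2b, a guanylate-binding protein outside the member list, stood at 149 and 49.1 (1.51) and Gbp8 at 116 and 49.3 (1.15). The others past 1.5-fold lay between 0.59 and 0.77. They were Irgq, Cd274 and the antigen presentation genes Psmb8, Psmb9, Tap1, Tap2, Cd74, H2-Ab1 and H2-Eb1. Other probe sets reached -0.45 in Irgq, -0.26 in Psmb8 and -0.04 in Tap1. The 2 lower genes were the chemokine Cxcl10, at 90.8 and 140 (-0.60), and Batf2, a transcription factor of activated macrophages, at 57.6 and 90.3 (-0.61), and neither was past 1.5-fold after median centring or with a pseudocount of 20. The number of these interferon-gamma-like genes higher past 1.5-fold was 7 with that pseudocount and 8 after quantile normalization. Tor3a lies on chromosome 1 and its probe sets ranged from 0.89 to 1.63. Sp100, a nuclear body protein also encoded there, differed by 0.74 at 35.5 and 19.2, and counted as expressed through the congenic array alone. With expression required on both arrays, 35 genes of the type I-like list remained, 34 higher at any size. Past 1.5-fold 9 of them were higher, beside 5.75% of all genes so filtered. With differences averaged over all probe sets of a gene, the medians of the 2 lists were 0.24 and 0.26.

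Markers of macrophages, neutrophils and lymphocytes were mostly higher beside these genes, and those of conventional and plasmacytoid dendritic cells were mixed. Over all expressed genes, 7.59% were higher past 1.5-fold and 5.26% lower, so a count of 0 of 4 or 0 of 8 is near that share. All 12 Kupffer cell and macrophage markers were expressed and higher, 9 of them past 1.5-fold, with a median of 0.76 and summed intensities of 31082 (congenic) and 19925 (control). All 9 measured neutrophil markers were higher, 8 past 1.5-fold, with a median of 2.27 and sums of 12747 and 5119, of which Lcn2 alone made up 8590 and 3853. Such sums are led by the probe sets with the highest intensities. Camp, Ltf, Mpo and Prtn3 counted as expressed through the congenic array alone. With expression required on both arrays, 5 neutrophil markers remained, 4 of them higher past 1.5-fold, with a median of 1.41. B and plasma cell markers summed to 1107 and 298 with 4 of 6 expressed genes higher past 1.5-fold and 1 lower. T and NK cell markers summed to 355 and 260 with 4 of 7 higher and 1 lower. With expression required on both arrays, 4 of 5 and 4 of 6 were higher past 1.5-fold and 0 lower. Plasmacytoid dendritic cell markers, of the cell type that makes most type I interferon in blood, summed to 388 and 352, led by Tcf4 (255 and 206). Their defining marker Siglech was below the expression filter with 4.93 and 19.3, and 3 of 7 measured markers were not expressed. Of the 4 expressed, 3 were higher and 1 lower at any size. Only Spib (35.3 and 8.22), expressed on the congenic array alone, was past 1.5-fold. Without the filter, 3 of the 7 were higher and 4 lower at any size. Past 1.5-fold 1 was higher and 3 lower, beside 8.78% and 8.06% of all genes. Conventional dendritic cell markers summed to 236 and 254, with 0 of 4 expressed genes higher past 1.5-fold and 2 lower, Cd209a (-1.49) and Zbtb46 (-0.85). Cd209a was expressed on the control array alone, and another probe set of Zbtb46 was at 0.39. With expression required on both arrays, 3 of these markers remained, 2 higher at any size and 1 lower, with a median of 0.21. Endothelial markers summed to 3782 and 3410 with 0 of 8 higher past 1.5-fold and 1 lower, Lyve1 (-0.64). Stellate cell markers had 3 of 7 higher past 1.5-fold, and cholangiocyte markers 0 of 4. No measured marker of these lists was at or below an intensity of 1 on either array. The part of these cell types in the differences of the members was not tested, and in bulk liver RNA more cells of a type cannot be told apart from more RNA per cell.

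**Figure D4:**
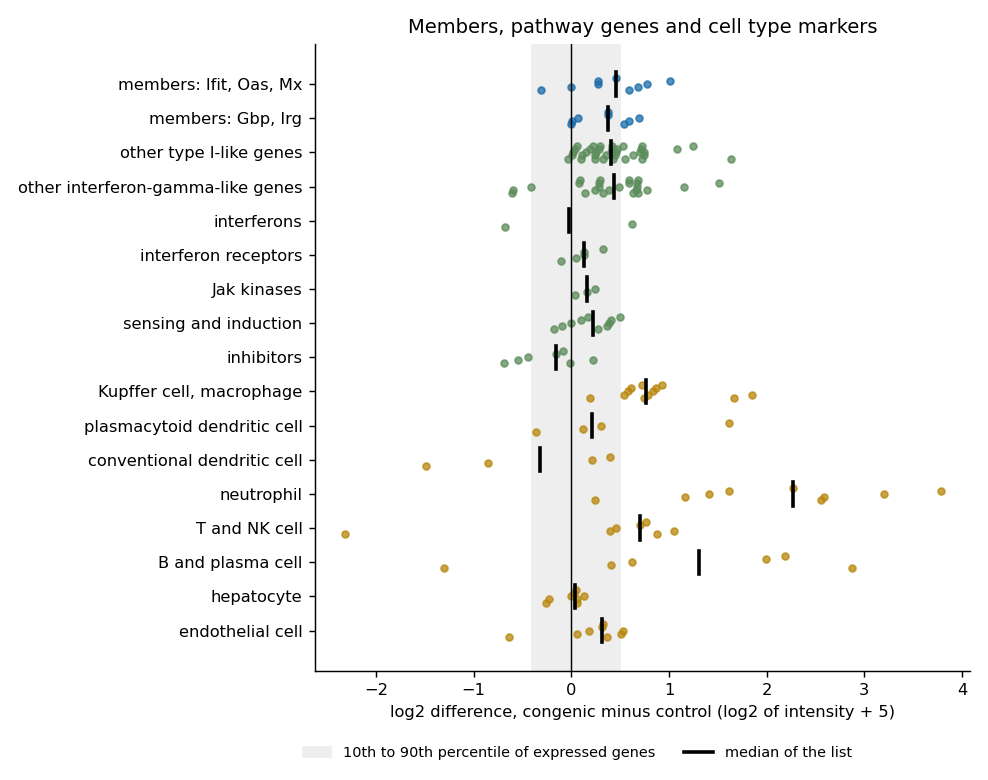
log2 difference (congenic minus control, of intensity + 5) of every expressed gene in the 2 member classes (blue), the pathway lists and other type I-like and interferon-gamma-like lists (green) and the cell type markers (yellow), with a black bar at each list's median. The medians of both member classes (0.46 and 0.37) lie below those of the macrophage (0.76) and neutrophil markers (2.27) and above that of the hepatocyte markers (0.04). With expression required on both arrays the neutrophil median was 1.41.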

How the data were processed

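The authors deposited linear intensities of 45101 probe sets. The probe summary and the scaling between arrays are not given in the sources used. Genes were named from the platform annotation, where 34945 probe sets had 1 gene symbol, 932 several and 9160 none. The 64 control probe sets were left out. Each gene was represented by its brightest probe set, the one with the highest mean of both arrays, and all members were named whatever their value.

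Differences were computed in Python 3.11.15 with numpy 2.4.6 and pandas 2.3.3. The code was run on simulated arrays whose changed genes differed by more than any member here, so that run does not bear on calls near 1.5-fold. Alternatives were pseudocounts of 1 and 20, quantile normalization, median centring, loess detrending (span 0.3, statsmodels 0.14.6), other expression filters, the mean over probe sets, and plain _at probe sets alone. With 1 array per group no test was possible. Promoters and chromosome membership came from RefSeq tables of GRCm38.p6, and no gene positions are given because the build of the array annotation is not stated. All 36 members matched the gene table. The members and gene lists were chosen with earlier results of these data known.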

Additional observations from a re-analysis of the deposited data

Results flagged for a closer look

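Signals for 2 listed genes lay in probe sets outside the rule for the members, since each carries the symbols of 2 genes. The probe set annotated to both Tgtp2 and Tgtp1, near-identical Irg GTPase genes of chromosome 11, stood at 600 (congenic) and 306 (control), a log2 difference of 0.96. The probe set annotated to both Isg15, the ubiquitin-like modifier that Usp18 removes, and Gm9706 stood at 457 and 353, a log2 difference of 0.37. Neither value can be assigned to a single gene, and neither enters a count above.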

How the results depend on the processing

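Over 10 alternatives the median difference of the members stayed between 0.23 and 0.37, that of the Gbp and Irg genes between 0.35 and 0.40 and that of the other members between 0.10 and 0.22. With plain _at probe sets alone, which leaves 23 expressed members, the type I-like median was 0.27, the interferon-gamma-like minus type I-like difference 0.10 and the number past 1.5-fold 4. Without a filter on expression that difference was 0.00. A pseudocount of 20 left 4 members higher past 1.5-fold. Quantile normalization and removal of a loess trend each put 1 member, Usp18, past 1.5-fold on the lower side, and the cause was not tested. Ifit2, Ifi47 and Zbp1 were past 1.5-fold under all 10, and Oasl2 under the 9 that measure it. For single members, Dhx58 was 0.24 with the mean over probe sets and Zbp1 0.64 with plain _at probe sets. No paired analysis was possible because each group had 1 array. With 1 array per group, precision is limited by the number of arrays.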
